A study of Mus musculus with 18 samples.

Results

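Tumour necrosis factor (TNF) family ligands and receptors were examined in RNA-seq of mouse bone marrow-derived macrophages (BMDMs). They were 10 genes chosen by symbol, all of them found among the 25926 genes of the table: the ligands Tnf, Tnfsf9, Tnfsf10, Tnfsf13b and Tnfsf15, and the receptors Tnfrsf1a, Tnfrsf1b, Tnfrsf9, Fas and Cd40. The 18 samples formed 3 groups of 6. All BMDMs came from C57BL/6 mice without a genetic change, 6 to 8 weeks old, and were grown for 7 days with 50 ng/mL M-CSF. They then shared a Transwell with renal tubular epithelial cells (TECs) of WT mice, from which a membrane with pores of 0.4 μm kept them apart. In the NC group, BMDMs were given PBS and lay above TECs without crystals. In the COM group, BMDMs were given PBS and lay above TECs exposed for 24 h to 100 μg/mL calcium oxalate monohydrate (COM), a main mineral of kidney stones. In the COM+Met group, the TECs were exposed to COM in the same way and the BMDMs received 5 mM of an agent that the labels name only as Met, also for 24 h. The labels do not say whether the 6 samples of a group were separate cultures or animals, so each p-value reflects how these 6 differed, and that may be technical variation.

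Ligands of the TNF family are trimers, made as membrane proteins and in part shed, that cluster their receptors at the cell surface. Receptors with a death domain (Tnfrsf1a, Fas) can start cell death, whereas receptors without one (Tnfrsf1b, Tnfrsf9, Cd40) bind TRAF adaptors and activate NF-kappa B. Macrophages are a main source of TNF, carry both of its receptors, and receive help from T cells through Cd40.

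Levels were deposited as FPKM, mapped fragments scaled to gene length and to the total of the sample, and were compared on the log2(FPKM + 1) scale, which understates the change of low genes. The depth behind these values is unknown. A gene is said to have risen or fallen at an adjusted p below 0.05 (limma over all genes tested), and to be called when its change was also at least 2-fold on that scale. On that scale the median change of all genes was -0.27 in COM against NC and -0.26 in COM+Met against NC. With median-of-ratios scaling it was 0.0048 and 0.011, but that scaling brings the median near 0 by construction. Whether the shift is one of scaling was not tested. Most changes from NC are also given relative to this shift. COM+Met against COM had a median of 0.0033. Samples of a group were not equally alike. Over 10751 genes they correlated with each other at 0.938 to 0.995 in NC, where NC-5 and NC-6 stood apart from the other 4, at 0.888 to 0.995 in COM, where COM-4, COM-5 and COM-6 stood apart from the other 3, and at 0.989 to 0.995 in COM+Met. COM samples correlated with COM+Met samples at 0.906 to 0.982, so the least alike pair inside COM was less alike than any of these. NC samples correlated with COM samples at 0.691 to 0.920 and with COM+Met samples at 0.780 to 0.869. All 7 macrophage markers, among them Adgre1, Csf1r and Lyz2, averaged at least 1 FPKM in each group. Their levels nevertheless differed between the groups, in different directions. In NC, COM and COM+Met, Adgre1 averaged 112, 577 and 586 FPKM, and Fcgr1 8.05, 83.7 and 62.6. Itgam, in contrast, averaged 298, 283 and 152 FPKM. Markers of other cell types also moved with the groups. The summed FPKM of 10 neutrophil markers was 532 to 1015 in NC, 170 to 551 in COM and 74.0 to 137 in COM+Met, with 6, 5 and 4 of them averaging at least 1 FPKM. S100a8 and Mmp8 made up most of it by mean level in each group. S100a9 averaged 171 FPKM in NC, 8.43 in COM and 1.30 in COM+Met. Camp was highest in COM, at 4.33, 7.93 and 3.08 FPKM in the same order. Mpo, Elane and Retnlg were at 0 in every COM and COM+Met sample. The sum of 10 tubular epithelial markers was 10.8 to 18.2 in NC, nearly all of it Cdh1, and at most 1.35 in COM and 0.302 in COM+Met, with Umod and Krt18 at 0 throughout. In the same order of groups, the sum of 6 dendritic cell markers was 1.03 to 23.4, 63.6 to 220 and 37.7 to 75.5, mostly Ccr7. Markers of T and NK cells (8 of 9 in the table) summed to at most 3.58 and those of B cells (5 of 6 in the table) to at most 0.758 in any sample. The part of other cells in the results that follow was not tested, and in bulk RNA fewer cells of a type and less RNA per cell cannot be told apart.

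**Figure D1:**
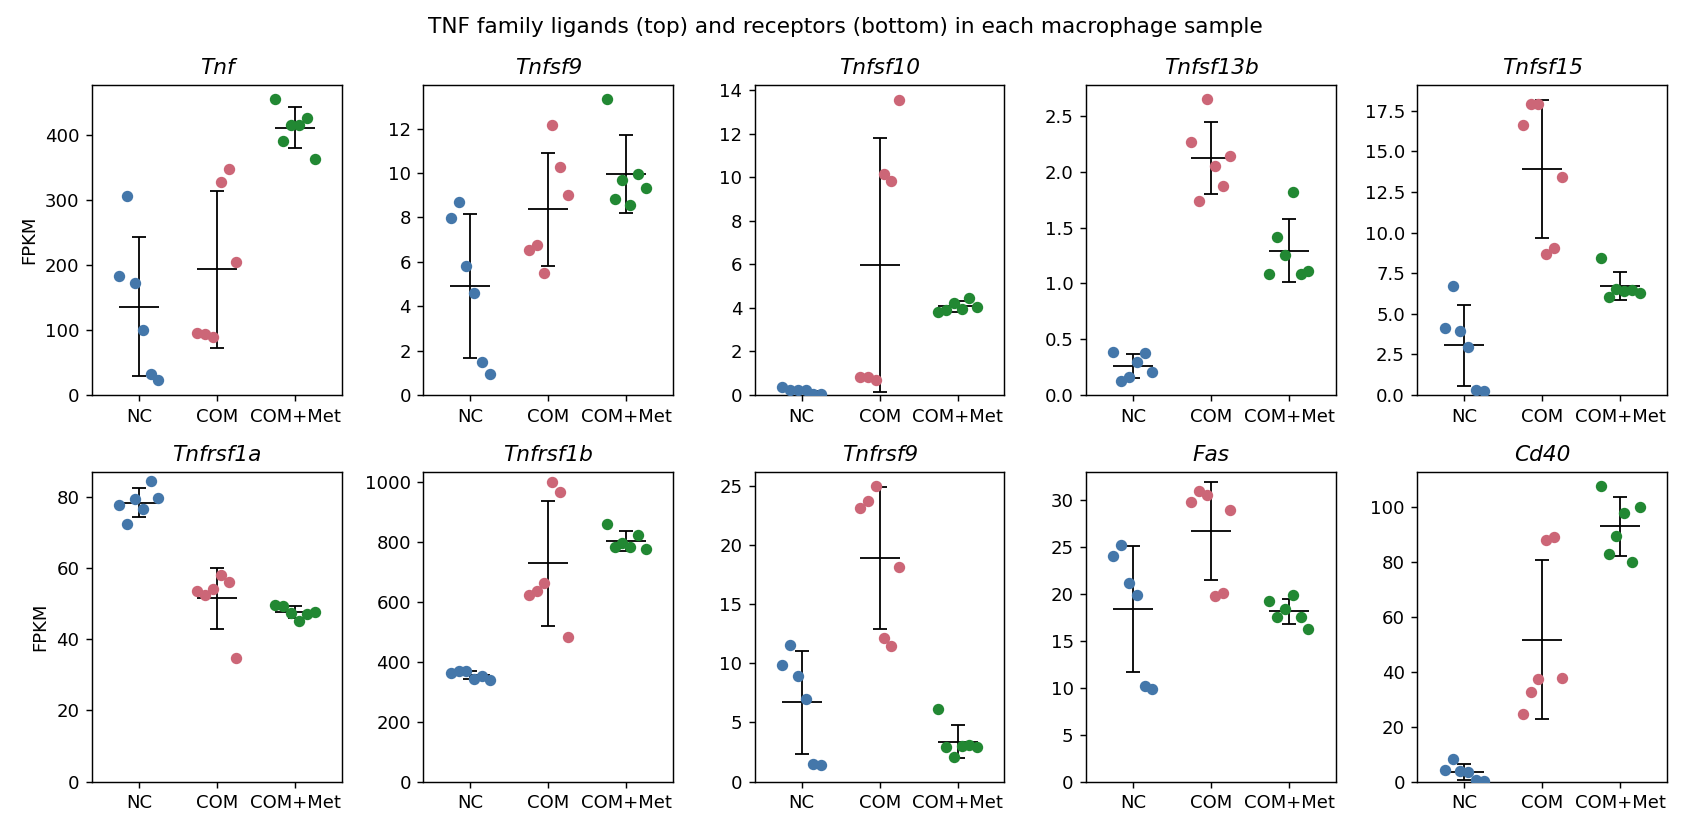
FPKM (vertical axes, linear, each from 0 and on its own scale) of the 5 ligands (top) and 5 receptors (bottom) in each of the 18 samples, with the mean and SD of each group of 6. Tnf in COM+Met (363 to 455) and Tnfrsf1b in COM (481 to 999.7) lay above every NC sample, and the points of Tnfsf10, Tnf and Cd40 in COM were spread more widely than those in COM+Met.

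The 10 genes covered more than 3 orders of magnitude, from 0.180 ± 0.110 FPKM for Tnfsf10 in NC to 802 ± 32.3 for Tnfrsf1b in COM+Met (mean ± SD, n = 6). Tnfrsf1b had the highest mean in every group and Tnf the second highest. In NC the order went on with Tnfrsf1a, Fas, Tnfrsf9, Tnfsf9, Cd40, Tnfsf15, Tnfsf13b and Tnfsf10. The ranges of Tnf and Tnfrsf1a overlapped there, as did those of each neighbouring pair from Fas down. In COM, Cd40 came next after Tnf, overlapping Tnfrsf1a below it, and Tnfsf13b came last. In COM+Met the order was Tnfrsf1b, Tnf, Cd40, Tnfrsf1a, Fas, Tnfsf9, Tnfsf15, Tnfsf10, Tnfrsf9 and Tnfsf13b, and Tnfsf10 and Tnfrsf9 were the only neighbours whose ranges overlapped. The samples that stood apart did so in these genes as well. NC-5 and NC-6 were the lowest NC samples for 7 of the 10, the exceptions being Tnfsf13b, Tnfrsf1a and Tnfrsf1b. COM-4 and COM-5 lay above each of COM-1 to COM-3 for 6 genes (Tnf, Tnfsf9, Tnfsf10, Tnfrsf1a, Tnfrsf1b and Cd40) and below each of them for 3 (Tnfsf15, Tnfrsf9 and Fas). COM-6 was on the same side for these genes except Tnfrsf1a and Tnfrsf1b, where it lay below each of COM-1 to COM-3. Its FPKM values summed to 380731, the lowest of the 18 samples (415715 to 449186 in the others).

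Coculture with COM-exposed TECs was compared with NC first. The 10 genes were chosen with earlier results of these data known. Shares of all genes are therefore set beside their counts for scale, here and below, and not as a test. Of the 10 genes, 6 rose (Tnfsf10, Tnfsf13b, Tnfsf15, Tnfrsf1b, Tnfrsf9 and Cd40), against 12.7% of the 10900 genes tested. Tnfrsf1a fell, against 40.6% of all genes, and Tnf, Tnfsf9 and Fas did not pass. All genes that rose except Tnfrsf1b were called higher, 5 against 5.99% of all genes, and 0 were called lower, against 11.7%. With median-of-ratios scaling, 864 of all genes were called higher and 821 lower, in place of 653 and 1273, and of the 10 genes 7 were called higher in place of 5. The 6 samples of COM did not overlap those of NC for 6 genes, which was so for 38.2% of all genes. The median change of the 10 was 1.15. Tnfsf10 and Tnfsf13b averaged below 1 FPKM in NC and entered the test only through their COM samples, so they had to differ to be tested.

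Met was then compared within the COM coculture, a comparison that uses the same COM samples. Tnf and Cd40 rose, against 5.77% of the 10364 genes tested, and Tnfsf13b, Tnfsf15, Tnfrsf9 and Fas fell, against 7.58%. Called higher were 2 genes (0.608% of all genes) and called lower was 1, Tnfrsf9 (1.61% of all). Tnf, Tnfsf15 and Tnfrsf9 did not overlap between COM+Met and COM, as was the case for 11.2% of all genes. The other 4 genes, Tnfsf9, Tnfsf10, Tnfrsf1a and Tnfrsf1b, did not pass, and the median change of the 10 was 0.019. COM+Met against NC shares samples with both. There, 9 of the 10 genes could be tested, Tnfsf13b being below the minimum mean of 1 FPKM. Tnf, Tnfsf9, Tnfsf10, Tnfsf15, Tnfrsf1b and Cd40 rose (19.3% of the 10786 genes tested) and all 6 were called (5.66%), Tnfrsf1a fell (55.9%), 0 were called lower (13.6%), and 5 did not overlap (57.6%). Tnfsf10 entered this test, too, only through its COM+Met samples. The share without overlap was near that of all genes, and nothing is read from it. The median change of the 9 was 1.17.

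**Figure D2:**
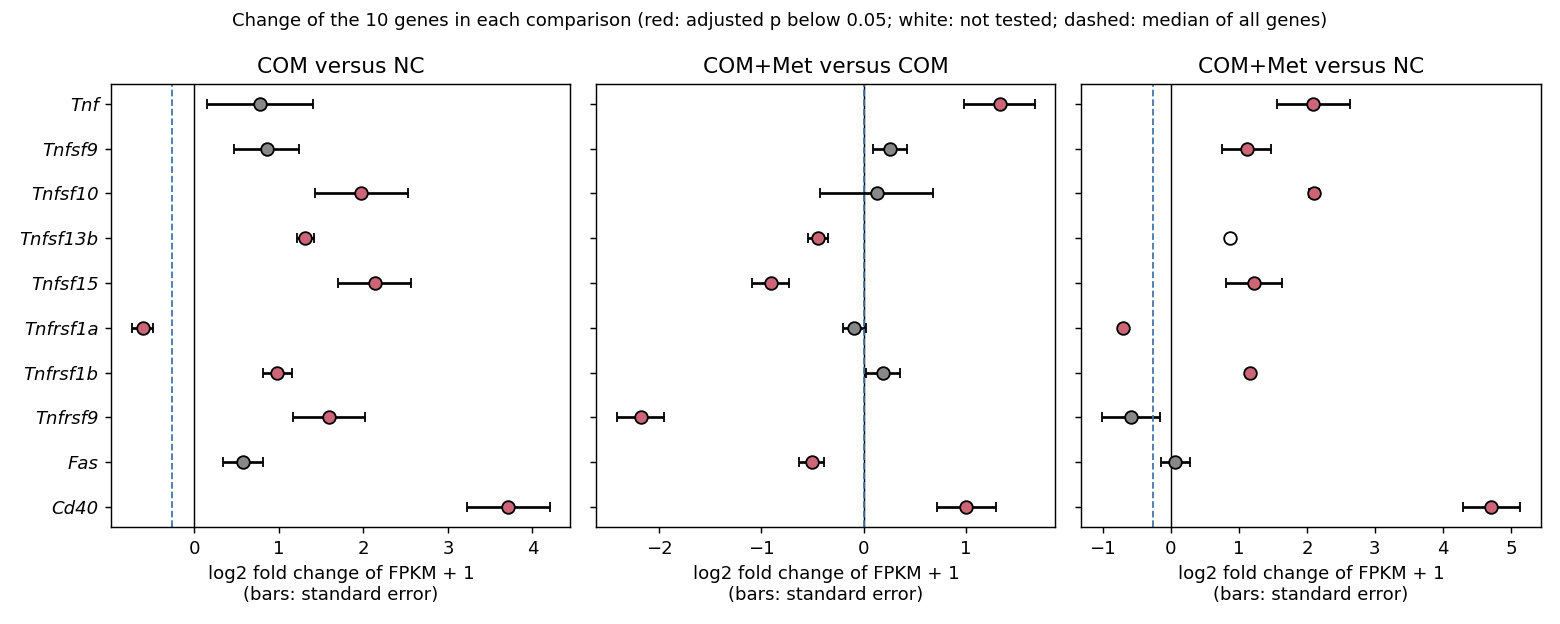
Change of each gene on the log2(FPKM + 1) scale (horizontal axes) with its standard error in the 3 comparisons, red where the adjusted p was below 0.05, white where the gene was not tested, with the median of all genes as a dashed line. Cd40 had the largest change in both comparisons with NC (3.71 and 4.71), and Tnfrsf9 the largest in COM+Met against COM (-2.18).

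Among the ligands, Tnf, the founding cytokine of the family, was the most abundant. Tnf (ENSMUSG00000024401, protein-coding, minus strand) lies at chr17:35199381-35202007 in GENCODE M21 on GRCm38, a build other than mm8 and mm9 named for these data. NC-1 to NC-6 held 183, 305, 172, 99.1, 31.6 and 23.5 FPKM. COM-1 to COM-3 held 94.4, 93.8 and 89.4 FPKM, and COM-4 to COM-6 held 328, 348 and 204. In COM+Met the lowest, median and highest levels were 363, 415 and 455 FPKM. COM thus spread from within the NC range to above it, and every COM+Met sample lay above every sample of the other groups. COM differed from NC by 0.77 ± 0.63 (log2 change ± SE; 1.04 relative to the shift), which did not pass (adjusted p = 0.312 with limma). Direction depended on the samples that stood apart: the difference was -0.11 without NC-5 and NC-6 (adjusted p = 0.862), -0.04 without COM-4 to COM-6 (0.971), and -0.92 without all 5 of them (0.0214), the last chosen after the data had been seen. Compared with COM, Tnf rose in COM+Met by 1.33 ± 0.34 (adjusted p = 0.0226), and by 2.13 without COM-4 to COM-6 (4.35e-10). The adjusted p was 0.0507 without COM-2 and 0.0946 with all 18 samples in the fit. Against NC it rose by 2.10 ± 0.54 in COM+Met (2.36 relative to the shift, adjusted p = 0.00321), and by 1.21 without NC-5 and NC-6 (0.00025).

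The sequence before the Tnf start is shown because 3 short motifs of inflammatory promoters were searched for in the 250 bases before the starts of these genes. The windows are from RefSeq (GRCm38.p6), which had 10 of them for 8 of the 10 genes. Cd40 and Tnfsf9 had no window and were not searched. Searched on both strands were the kappa B consensus, held by 3.90% of all 32851 windows, GAAA and GAAA spaced by 2 bases as in the interferon-stimulated response element (ISRE; 2.98%), and TTCNNNGAA of the gamma-activated site (7.02%). None of the 3 was found in the window of Tnf at chr17:35202008-35202257, minus strand, which is printed 5′ to 3′ in lower case and ends with the base before the start.
Tnf: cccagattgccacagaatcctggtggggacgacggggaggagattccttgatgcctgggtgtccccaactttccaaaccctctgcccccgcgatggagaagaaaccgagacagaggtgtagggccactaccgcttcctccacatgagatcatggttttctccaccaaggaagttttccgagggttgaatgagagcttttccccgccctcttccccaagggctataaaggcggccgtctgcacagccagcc

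Tnfsf9 (4-1BB ligand; ENSMUSG00000035678, chr17:57105325-57107757, plus strand) binds Tnfrsf9 and costimulates T cells. Its lowest, median and highest levels were 0.939, 5.20 and 8.69 FPKM in NC. They were 5.50, 7.88 and 12.2 FPKM in COM and 8.57, 9.51 and 13.4 in COM+Met. All neighbouring ranges overlapped, with NC-5 and NC-6 lowest of all samples. COM differed from NC by 0.86 ± 0.38 (1.13 relative to the shift, adjusted p = 0.075), which passed with median-of-ratios scaling (1.12, adjusted p = 0.0341) and was -0.07 without the 5 samples that stood apart (0.754). COM+Met against COM gave 0.26 ± 0.17 (adjusted p = 0.344), and 0.59 without COM-4 to COM-6 (0.00107). Tnfsf9 rose in COM+Met against NC by 1.11 ± 0.37 (1.38 relative to the shift, adjusted p = 0.0141), and by 0.52 without NC-5 and NC-6 (0.00765), which is below 2-fold.

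Tnfsf10 (TRAIL; ENSMUSG00000039304, chr3:27317028-27342427, plus strand) is a death ligand. In NC it ranged from 0.0441 to 0.341 FPKM, with a median of 0.210. COM-1 to COM-3 held 0.817, 0.822 and 0.700 FPKM, and COM-4 to COM-6 held 10.1, 9.81 and 13.6. The COM+Met samples ranged from 3.80 to 4.47 FPKM with a median of 4.01, in the gap between these COM samples. No COM or COM+Met sample overlapped NC. Tnfsf10 rose by 1.98 ± 0.55 in COM (2.25 relative to the shift, adjusted p = 0.00933) and by 2.11 ± 0.07 in COM+Met against NC (2.37 relative to the shift, adjusted p = 6.94e-11). COM+Met against COM gave 0.13 ± 0.55 (adjusted p = 0.903), and 1.51 without COM-4 to COM-6 (6.85e-09). Without those 3 samples its mean over COM and NC was below the minimum for the test. Tnfrsf10b, the death receptor of TRAIL in mice, was at most 1.69 FPKM in any sample. Tnfrsf22 and Tnfrsf23, which also bind TRAIL, ranged from 2.40 to 5.71 and from 11.7 to 28.3 FPKM over all samples.

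Tnfsf13b (BAFF; ENSMUSG00000031497, chr8:10006467-10039072, plus strand) is a survival factor of B cells. It ranged from 0.128 to 0.389 FPKM in NC (median 0.250), from 1.74 to 2.65 in COM (median 2.10) and from 1.08 to 1.82 in COM+Met (median 1.19). Both COM groups lay above NC in every sample, and only COM+Met-4 reached into the COM range. The rise in COM was 1.31 ± 0.10 (1.58 relative to the shift, adjusted p = 6.5e-07). It fell by 0.45 on the log2 scale in COM+Met against COM (SE 0.10, adjusted p = 0.0121). COM+Met differed from NC by 0.86 (two-sided exact permutation p = 0.00216, the smallest that 6 against 6 samples can give). One of its starts in RefSeq lies inside the annotated gene, and the window before that start has 166 bases in annotated exons. This window had an ISRE match at positions -16 to -7 counted from the start. The match is shown in capitals with the bases around it, at chr8:10006607-10006632 on the plus strand, which is also inside the gene. Its other window had none of the 3 motifs.
Tnfsf13b: tacaaaaactGAAAGTGAAAtgcgga

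Tnfsf15 (TL1A; ENSMUSG00000050395, chr4:63727084-63745113, minus strand) costimulates T cells through Tnfrsf25, which was at most 0.210 FPKM here. Its lowest, median and highest levels were 0.224, 3.43 and 6.73 FPKM in NC. In COM they were 8.69, 15.0 and 17.9 FPKM, and in COM+Met 6.04, 6.44 and 8.41. COM lay above both other groups in every sample, with COM-4 and COM-5 lowest, while COM+Met overlapped NC through NC-2. Tnfsf15 rose by 2.13 ± 0.43 in COM against NC (2.40 relative to the shift, adjusted p = 0.00129; 1.45 without NC-5 and NC-6, 0.001). It fell by 0.91 in COM+Met against COM (SE 0.18, adjusted p = 0.00561; 0.0971 with all 18 samples in the fit). COM+Met was 1.22 ± 0.41 above NC (1.48 relative to the shift, adjusted p = 0.0155), and 0.54 above it without NC-5 and NC-6 (0.00562). No motif was found in the windows of Tnfsf10 and Tnfsf15.

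Among the receptors, the pair that binds TNF moved in opposite directions. Tnfrsf1a (TNFR1; ENSMUSG00000030341, chr6:125349362-125362484, plus strand) carries the death domain. Its lowest, median and highest levels were 72.2, 78.5 and 84.5 FPKM in NC, 34.7, 53.9 and 58.1 in COM, and 45.0, 47.6 and 49.6 in COM+Met. All NC samples were above all others, and COM-6 lay below the rest of COM. It fell by 0.61 in COM against NC (SE 0.12, adjusted p = 0.00117; -0.34 relative to the shift and -0.30 with median-of-ratios scaling, 0.0315) and by 0.70 in COM+Met against NC (SE 0.04, adjusted p = 1.08e-08; -0.44 relative to the shift). COM+Met against COM gave -0.09 ± 0.12 (adjusted p = 0.648), and passed without COM-6 (-0.20, 0.011) or without COM-4 to COM-6 (-0.16, 0.00436).

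Tnfrsf1b (TNFR2; ENSMUSG00000028599, chr4:145213463-145246870, minus strand) has no death domain. Its levels in NC ranged from 339 to 369 FPKM with a median of 358. COM-1 to COM-6 held 621, 636, 661, 999.7, 964 and 481 FPKM, and COM+Met ranged from 774 to 859 with a median of 788. No COM or COM+Met sample overlapped NC, and COM+Met lay inside the COM range. The rise was 0.98 ± 0.17 in COM against NC (1.25 relative to the shift, adjusted p = 0.000428) and 1.17 ± 0.04 in COM+Met against NC (1.43 relative to the shift, adjusted p = 1.39e-10). COM+Met against COM gave 0.19 ± 0.16 (adjusted p = 0.487), and 0.33 without COM-4 to COM-6 (6.8e-05). Its promoter is shown because it held 2 of the 3 motifs, in capitals: TTCNNNGAA at positions -181 to -173 and the ISRE, on the opposite strand, at -10 to -1, without overlap (chr4:145246871-145247120, minus strand).
Tnfrsf1b: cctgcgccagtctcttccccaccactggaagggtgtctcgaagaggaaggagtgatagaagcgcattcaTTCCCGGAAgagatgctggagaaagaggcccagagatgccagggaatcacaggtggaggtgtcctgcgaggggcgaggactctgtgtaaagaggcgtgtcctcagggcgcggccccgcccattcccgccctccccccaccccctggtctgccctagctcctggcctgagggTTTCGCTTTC
A TTCNNNGAA match was also found at -244 to -236 from a start of Tnfrsf1a, in a window that lies inside the gene and has 36 bases in annotated exons.

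The ratio of Tnfrsf1b to Tnfrsf1a within a sample does not depend on how samples are scaled to each other. It was chosen after the values had been seen and is given without a test. The ratio was 4.55 ± 0.338 in NC (SD, n = 6), 14.0 ± 2.56 in COM and 16.8 ± 0.680 in COM+Met. NC ranged from 4.18 to 5.11 and overlapped neither of the others, the lowest COM sample being at 11.6. COM-4 and COM-5 (17.2 in both) lay within the COM+Met range of 15.8 to 17.5, and the other COM samples were below it.

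Tnfrsf9 (4-1BB or CD137; ENSMUSG00000028965, chr4:150914562-150946102, plus strand), the receptor of Tnfsf9, fell most of the 10 in COM+Met against COM. It was at 9.89, 11.6, 8.89, 6.97, 1.50 and 1.40 FPKM in the NC samples, in the order of their numbers. COM-1 to COM-3 had 23.1, 23.7 and 25.0 FPKM, and COM-4 to COM-6 had 12.1, 11.5 and 18.1. COM+Met-1 had 6.12 FPKM and the other COM+Met samples between 2.09 and 3.11. All COM+Met samples were therefore below all COM samples and above NC-5 and NC-6, and COM overlapped NC only between COM-5 and NC-2. It rose by 1.59 ± 0.43 in COM against NC (1.86 relative to the shift, adjusted p = 0.00765; 0.91 without NC-5 and NC-6, 0.0115). It fell by 2.18 in COM+Met against COM (SE 0.23, adjusted p = 0.000139), and under the alternatives tried the change lay between -2.63 and -1.49 with an adjusted p of at most 0.00317. COM+Met against NC gave -0.59 ± 0.42 (adjusted p = 0.222), and -1.27 without NC-5 and NC-6 (5.61e-05). Tnfrsf9 overlaps Camta1 on the opposite strand, and whether counting used strand is not stated; Camta1 averaged 2.25 FPKM in NC, 1.44 in COM and 1.03 in COM+Met. The window of one Tnfrsf9 start lies inside the gene and has 81 bases in annotated exons. This window held a kappa B match in 2 overlapping registers, shown in capitals at chr4:150927946-150927975 on the plus strand. It also held a TTCNNNGAA match at -136 to -128. The window of the other Tnfrsf9 start, also inside the gene, had none.
Tnfrsf9: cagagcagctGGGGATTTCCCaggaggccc

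Tnfrsf9 fell in COM+Met against COM and its ligand did not pass. The ratio of Tnfsf9 to Tnfrsf9 within a sample, again chosen after the values had been seen and given without a test, was 0.754 ± 0.128 in NC (SD, n = 6), 0.530 ± 0.339 in COM and 3.17 ± 0.807 in COM+Met. NC ranged from 0.653 to 0.983 and COM from 0.220 to 1.00, so these overlapped. COM+Met ranged from 2.18 to 4.64, above every other sample.

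**Figure D3:**
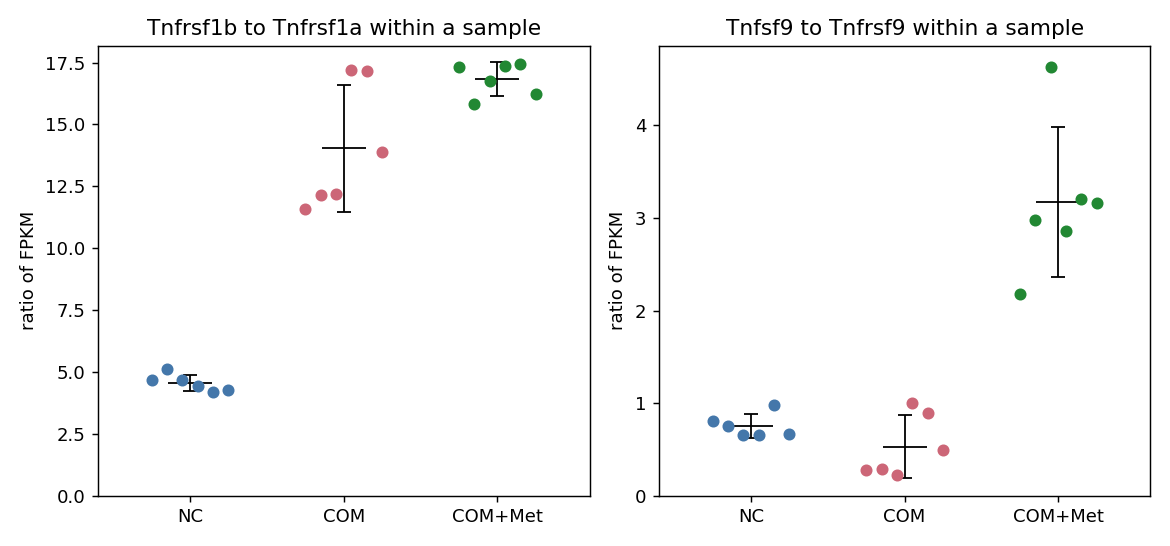
Ratio of FPKM values within each sample (vertical axes, linear, from 0) for Tnfrsf1b to Tnfrsf1a and for Tnfsf9 to Tnfrsf9, with the mean and SD of each group of 6. NC lies apart from both other groups in the first ratio, and COM+Met lies above both other groups in the second (lowest COM+Met sample 2.18, highest other sample 1.00).

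Fas (CD95; ENSMUSG00000024778, chr19:34290666-34327772, plus strand) is a death receptor. Its lowest, median and highest levels were 9.82, 20.5 and 25.2 FPKM in NC, 19.8, 29.3 and 30.9 in COM, and from 16.2 to 19.9 in COM+Met, with a mean of 18.1 ± 1.33 (SD, n = 6). COM-4 and COM-5, at 19.8 and 20.1, were inside the NC range and at the edge of COM+Met, and the other COM samples were above both. COM differed from NC by 0.58 ± 0.24 (0.85 relative to the shift, adjusted p = 0.0593). That difference passed with median-of-ratios scaling (0.88, adjusted p = 0.00834) and was 0.21 without NC-5 and NC-6 (0.296). Fas fell by 0.51 in COM+Met against COM (SE 0.13, adjusted p = 0.0177; 0.0949 with all 18 samples in the fit). COM+Met against NC gave 0.07 ± 0.22 (adjusted p = 0.786), and -0.30 without NC-5 and NC-6 (0.00234). A TTCNNNGAA match lay at -93 to -85 from its start, and Fasl, its ligand, was at most 0.0209 FPKM in any sample.

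Cd40 (ENSMUSG00000017652, chr2:165055627-165072948, plus strand), through which T cells activate macrophages, rose most of the 10 in both comparisons with NC. The NC samples, by number, had 4.28, 8.10, 3.91, 3.58, 0.467 and 0.286 FPKM. COM-1 to COM-6 had 24.7, 32.7, 37.4, 87.9, 88.9 and 37.6 FPKM. The lowest, median and highest levels in COM+Met were 79.8, 93.5 and 107 FPKM. Every COM and COM+Met sample was above every NC sample, and COM overlapped COM+Met through COM-4 and COM-5. Cd40 rose by 3.71 ± 0.49 in COM against NC (3.98 relative to the shift, adjusted p = 5.53e-05), by 3.02 without NC-5 and NC-6 (0.000106) and by 3.18 without COM-4 to COM-6 (0.0017). Against NC it rose in COM+Met by 4.71 ± 0.41 (4.97 relative to the shift, adjusted p = 3.3e-07). The rise in COM+Met against COM was 1.00 ± 0.29 (adjusted p = 0.036), and 1.54 without COM-4 to COM-6 (9.99e-07). It did not pass when COM-1, COM-2, COM-3 or any single COM+Met sample was left out (0.83 to 1.04, adjusted p = 0.058 to 0.0795), nor with all 18 samples in the fit (0.108). Cd40lg, the ligand, was listed at 0 in all 18 samples.

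Patterns over the 18 samples were compared for Tnf, Tnfsf9 and Tnfrsf9 with those of the 10751 genes averaging at least 1 FPKM, by the mean absolute difference of standardised log2(FPKM + 1) values. Samples share their library and condition across genes, so these are descriptions. Nearest to Tnf were Hivep3 (0.155 SD), Ccl3 (0.176), a chemokine of macrophages, and Hcar2 (0.219), the niacin receptor. Ccl3 averaged 135, 299 and 428 FPKM in NC, COM and COM+Met. Nearest to Tnfsf9 were Inhba (0.196), a subunit of activin, Zc3h12c (0.199) and Ptgs2 (0.212), the inducible cyclooxygenase, which averaged 11.3, 20.0 and 25.0 FPKM. Nearest to Tnfrsf9 were Chil1 (0.211), the unnamed gene model Mus_musculus_newGene_5638 (0.244) and Nrg1 (0.245). Chil1, a chitinase-like protein, averaged 3.55, 8.15 and 1.24 FPKM.

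Of 13 other ligands of the family, 6 could be tested in COM against NC, where Tnfsf4 and Lta rose, Ltb, Tnfsf12 and Tnfsf13 fell, all 5 called, and 1 did not pass. Called were 2 higher and 3 lower, beside 5.99% and 11.7% of all genes. Their median change was -0.82, beside -0.27 for all genes. Tnfsf4 (OX40 ligand, a costimulator of T cells) rose by 2.16 ± 0.20 (2.43 relative to the shift, adjusted p = 3.36e-06), from 0.506 ± 0.291 to 5.91 ± 2.06 FPKM (SD, n = 6), entering the test only through COM. It was the only one of 5 tested to change in COM+Met against COM, where it fell by 1.35 (SE 0.22, adjusted p = 0.00204) to 1.69 ± 0.840 FPKM. As for Tnfrsf9, COM-1 to COM-3 (7.47 to 7.96) were above COM-4 and COM-5 (3.44 and 3.80), and COM+Met-1 (3.39) was above the other COM+Met samples. Unlike Tnfrsf9, every NC sample (at most 0.963) was below every COM+Met sample (at least 1.22). From NC to COM+Met, 2 of the 6 rose and 4 fell, with a median of -0.89, beside 19.3% and 55.9% of all genes. Called were 1 higher and 3 lower (5.66% and 13.6% of all genes). Of the 6, Lta, Tnfsf4, Ltb and Tnfsf8 averaged below 1 FPKM in 1 group and entered this test only through the other.

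Tnf has both lymphotoxin genes as neighbours on chromosome 17, Lta at 1.2 kb and Ltb at 3.1 kb in GRCm38, and these changed in opposite directions. Lta, whose product binds the same receptors as TNF, was at 0 to 0.987 FPKM in NC, 1.42 to 8.60 in COM and 6.26 to 7.76 in COM+Met. As with Tnf, COM-4 to COM-6 (6.37 to 8.60) were above COM-1 to COM-3 (1.42 to 2.69). Lta rose by 1.82 ± 0.35 in COM (2.09 relative to the shift, adjusted p = 0.000965) and by 2.54 ± 0.15 in COM+Met against NC (2.81 relative to the shift, 6.65e-09), in both cases entering the test through the higher group. Ltb, which anchors lymphotoxin at the membrane, was at 2.07 to 12.5 FPKM in NC, 0.669 to 1.24 in COM and 0.244 to 1.05 in COM+Met, without overlap with NC. It fell by 1.85 in COM (SE 0.35, adjusted p = 0.000847; -1.58 relative to the shift) and by 2.27 in COM+Met against NC (SE 0.37, 9.18e-05; -2.01 relative to the shift). Ltb averaged 0.528 FPKM in COM+Met, so it entered the second of these tests only through NC. Tnfsf12 (TWEAK) fell by 1.60 in COM (SE 0.17, adjusted p = 1.11e-05) and by 1.35 in COM+Met against NC (SE 0.07, 1.43e-09), or -1.33 and -1.09 relative to the shift. Tnfsf13 (APRIL, a B cell factor related to BAFF) fell by 1.61 (SE 0.29, 0.000566) and by 2.17 (SE 0.22, 1.44e-06), or -1.34 and -1.90. Both overlap a read-through gene on the same strand, so how reads were divided between them is uncertain.

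Other receptors of the family, 23 in all, gave 12 that could be tested in COM against NC, of which 1 rose, 7 fell and 4 did not pass. Of all genes 12.7% rose and 40.6% fell, and a count of 7 in 12 is not read as particular to these receptors. Their median change was -0.46, and Tnfrsf11a, one of those that fell, was at -0.07 relative to the shift. Called were 2, both lower (11.7% of all genes). Tnfrsf12a, the TWEAK receptor, fell by 1.27 (SE 0.26, adjusted p = 0.00127; -1.01 relative to the shift) from 6.56 ± 2.04 to 2.23 ± 1.03 FPKM, with COM-6 lowest at 0.388. Tnfrsf13b (TACI), a receptor of BAFF and APRIL, fell by 1.06 (SE 0.12, 1.81e-05) from 16.7 ± 1.55 to 7.60 ± 1.46, which is -0.79 relative to the shift and less than 2-fold. From COM to COM+Met, 3 of 11 rose and 2 fell, 0 of them called, beside 5.77% and 7.58% of all genes. From NC to COM+Met, 4 of 12 rose and 8 fell (19.3% and 55.9% of all genes), with a median of -0.63. Called lower there were 4 (13.6% of all genes): Tnfrsf12a (-1.17, SE 0.14, 6.87e-06), Tnfrsf13b (-1.12, SE 0.07, 8.72e-09), Tnfrsf21 (DR6; -1.43, SE 0.11, 1.35e-07) and Relt (-1.30, SE 0.11, 1.5e-07). Relative to the shift these were -0.91, -0.86, -1.16 and -1.03, so Tnfrsf12a and Tnfrsf13b were then below 2-fold. Tnfrsf18, counted as fallen in both comparisons with NC, averaged 0.899 FPKM in COM and 0.424 in COM+Met and entered only through NC.

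**Figure D4:**
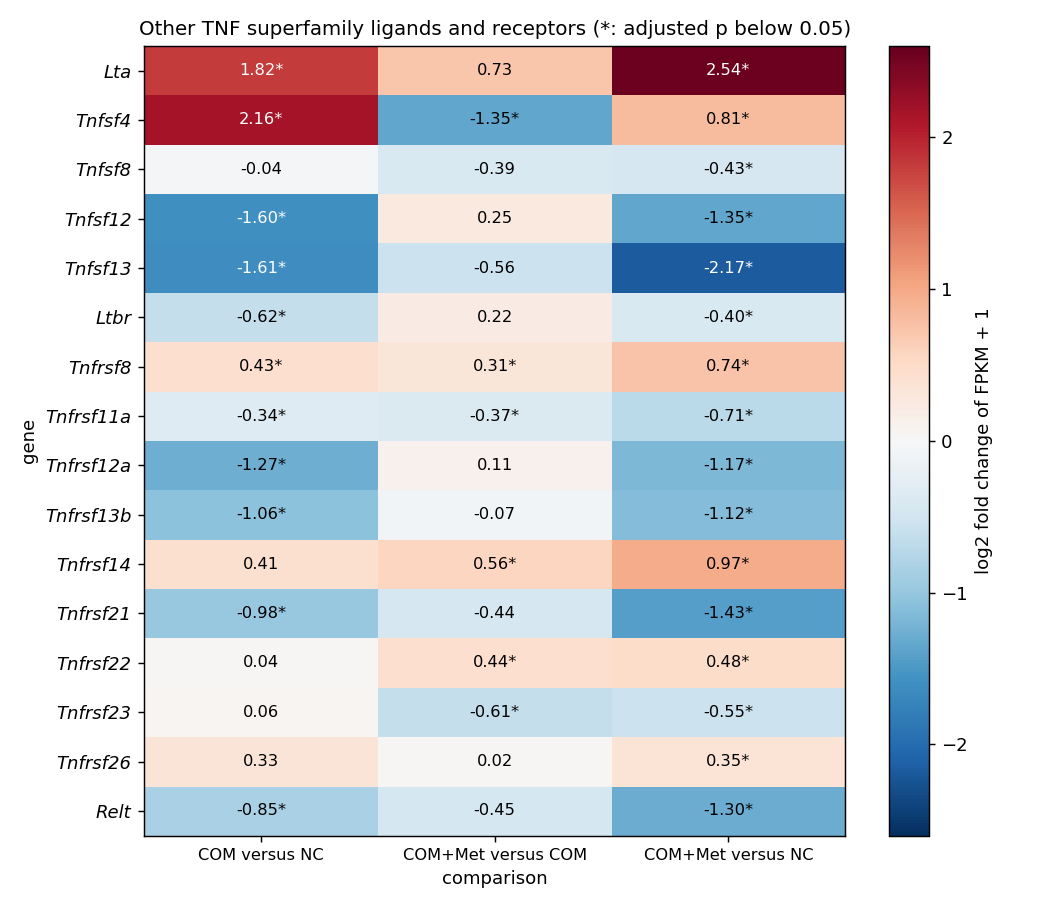
Change on the log2(FPKM + 1) scale (colour and number) of the 16 other family ligands and receptors tested in all 3 comparisons (columns), with an asterisk at an adjusted p below 0.05. Tnfsf4 was higher in COM than in NC and lower in COM+Met than in COM, and Tnfsf12, Tnfsf13, Tnfrsf12a and Tnfrsf13b were lower in both comparisons with NC.

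Inside the cell, 35 signalling and control genes of the TNF receptors were all tested. In COM against NC, 11 rose, 3 fell and 21 did not pass, with a median change of 0.21 (12.7% of all genes rose and 40.6% fell). Called were 5 higher and 1 lower, beside 5.99% and 11.7% of all genes. Relative to the shift, Traf1 was at 3.18, Cflar at 2.16, Tnfaip3 at 1.78, Mlkl at 2.32 and Ripk3 at -1.42. Traf1, an adaptor that binds Tnfrsf1b, Tnfrsf9 and Cd40, rose by 2.91 ± 0.59 (adjusted p = 0.00135) from 10.4 ± 8.40 to 59.2 ± 15.5 FPKM. Cflar (cFLIP), the inhibitor of caspase-8 at death receptors, rose by 1.89 ± 0.29 (0.000163) from 31.1 ± 9.64 to 123 ± 52.1. Tnfaip3 (A20), which restrains NF-kappa B, rose by 1.51 ± 0.40 (0.00649) from 34.7 ± 20.5 to 85.5 ± 19.5. Of the necroptosis pair, Ripk3 fell by 1.69 (SE 0.21, 3.05e-05) from 27.8 ± 3.97 to 8.29 ± 2.86 FPKM, while its substrate Mlkl rose by 2.06 ± 0.29 (8.08e-05) from 11.3 ± 1.10 to 56.2 ± 29.2. Adam17, the enzyme that sheds TNF, had 86.2 ± 12.8 FPKM in NC and 91.9 ± 8.33 in COM, and Zfp36, which destabilises Tnf mRNA, had 28.9 ± 8.77 and 22.5 ± 4.42. Neither passed (adjusted p = 0.481 and 0.227).

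Between COM+Met and COM, 1 of the 35 passed, the death receptor adaptor Fadd, which rose by 0.41 ± 0.09 (adjusted p = 0.0128), beside 5.77% of all genes, and none was called. Traf1 was 0.41 ± 0.16 higher (0.104), with 76.7 ± 3.30 FPKM in COM+Met, and Zfp36 differed by 0.03 ± 0.12 (0.885). Against NC, COM+Met had 14 that rose, 8 that fell and 13 that did not pass, with 6 called higher and 1 lower and a median of 0.14. Of all genes 19.3% rose and 55.9% fell, and 5.66% were called higher and 13.6% lower. Relative to the shift, Ripk1 (-0.24) and Tab2 (-0.21), counted as fallen, turned to 0.02 and 0.05, and Chuk (-0.30) was at -0.04. Traf1 rose by 3.32 ± 0.58 (0.000183), Cflar by 2.34 ± 0.17 (4.22e-08), Mlkl by 2.26 ± 0.06 (1.02e-11) and Tnfaip3 by 1.46 ± 0.38 (0.00387), and Ripk3 fell by 1.62 (SE 0.09, 4.03e-09). Relative to the shift, Traf1 was at 3.58, Mlkl at 2.52, Tnfaip3 at 1.72 and Ripk3 at -1.36, and Cflar also stayed above 2-fold.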

How the data were processed

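RNA-seq of BMDMs was analysed in 18 samples, with groups and replicate numbers taken from the labels. The authors deposited FPKM values, 1 column a sample. Bowtie 0.12.2, mm8 and mm9 are named without roles in the processing notes of the submitters. The quantifier, annotation and strand setting were not given in the sources used here. FPKM gives no depth, so no counting interval could be given, and it is relative to each sample's total. All sample columns were used.

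From the deposited FPKM, log2(FPKM + 1) was computed, and limma 3.58.1 (lmFit, eBayes with trend; R 4.3.3) was run on genes averaging 1 FPKM or more in the 12 samples of a comparison, and p-values were adjusted by Benjamini-Hochberg over them all. An exact permutation test, two-sided over 924 splits, was used for single values. The fit was also run on simulated data, in which the samples of a group varied independently about a common mean. Samples that stand apart, as in NC and COM, were not simulated, so that run does not bear on their effect. The labels give no batch. Genes and lists were chosen with earlier results of these data known. All 10 genes were described, and of each other list the 5 called genes with the largest change in a comparison. For Tnf, Tnfsf9 and Tnfrsf9 the 3 nearest genes by profile were named. Other genes, such as Adam17, Zfp36, Fadd, Ripk1, Tab2, Chuk, Tnfrsf11a and the ligands or receptors of the 10, were named after their values were seen. Alternatives were pseudocounts of 0.1 and 5, no filter, a filter of 5 FPKM, median-of-ratios and quantile scaling, a replicate block, all 18 samples in the fit, sample weights, samples left out and no limit of size. Sequences and motifs were read with Python 3.11.15 from RefSeq windows, and positions from GENCODE M21. Plots were made with matplotlib 3.10.9.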

Additional observations from a re-analysis of the deposited data

Results flagged for a closer look

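Each of the 10 genes was checked in each group of 6, 30 groups in all, for a lone sample. It was marked when its gap to the nearest sample, divided by the group's range, was above Dixon's critical value for 6 samples. Gap and range were taken on the log2(FPKM + 1) scale, so the ratios are not those of the FPKM values printed beside them. Chance alone marks about 1 in 20 such groups. COM+Met-1 stood above the rest of its group in 3 genes: Tnfsf9 at 13.4 FPKM (nearest sample 9.96, gap over range 0.664), Tnfsf15 at 8.41 FPKM (nearest 6.54, 0.761) and Tnfrsf9 at 6.12 FPKM (nearest 3.11, 0.657). COM-6 stood below the rest of COM for Tnfrsf1a, at 34.7 FPKM (nearest 52.3, 0.796).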

How the results depend on the processing

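Of the values of single genes recomputed under the alternatives, 216 of 235 in COM against NC, 188 of 219 in COM+Met against COM and 189 of 196 in COM+Met against NC kept their direction and their side of the threshold. In the order COM against NC, COM+Met against COM, COM+Met against NC, all genes called were 1926, 230 and 2078. They became 5805, 1384 and 8114 with no limit of size, and 980, 90 and 1117 with a pseudocount of 5. In COM+Met against COM they were 370 with a pseudocount of 0.1, 719 with sample weights and 771 without COM-4 to COM-6. Of the 10 genes, 5, 3 and 6 were called, and 7, 3 and 6 with median-of-ratios scaling. With a pseudocount of 5, 3 were called in COM against NC and 3 in COM+Met against NC, and in COM against NC 3 with a filter of 5 FPKM and 3 without COM-4 to COM-6, where Tnfsf10 and Tnfsf13b were not tested. In COM+Met against COM, 6 were called with no limit of size, 1 with all 18 samples in the fit, 5 with sample weights and 5 without COM-4 to COM-6, and leaving out each sample in turn gave 1 (without COM-2) to 4. Reversed were Tnf in COM against NC (-0.72 with sample weights, -0.11 without NC-5 and NC-6, -0.037 without COM-4 to COM-6, -0.92 without all 5), Tnfsf9 there (-0.069 without all 5, a setting added after the data had been seen), Tnfsf10 in COM+Met against COM (-0.089 with a pseudocount of 5, and down to -0.16, with an upper value of 0.46, as single samples were left out) and Fas in COM+Met against NC (-0.25 with sample weights, -0.30 without NC-5 and NC-6, and -0.083 to 0.17 with single samples left out). The causes were not tested. Changes of the lowest genes depended on the pseudocount (5 or 0.1): in COM against NC, Tnfsf10 rose by 0.90 or 3.59 and Tnfsf13b by 0.44 or 2.68. With sample weights Tnfsf10 rose there by 0.65. Same-numbered samples did not deviate together (0 of 6 pairs correlated over 0.1 in each comparison). The main fits used no pairing, but 6 pairs held against a set limit cannot exclude one. The replicate block left 1920, 202 and 2080 of all genes and 5, 2 and 6 of the 10 called. Fas then passed in COM against NC (0.0386), and Tnfsf13b (0.0561), Fas (0.0627) and Cd40 (0.0745) did not in COM+Met against COM. Depth is unknown, so the precision of low genes such as Tnfsf10 in NC is unknown too.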
